A study of Homo sapiens with 9 samples.

Results

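Transcripts were measured after knockdown of BMAL1, the core circadian clock factor listed in the files as ARNTL, in 786-O cells. The comparison holds 6 of the 9 libraries of the series, 3 that carried a short hairpin RNA (shRNA) against BMAL1 (shBMAL1) and 3 that carried a control shRNA (shControl). The other 3 libraries carried an shRNA against ARNT (shARNT), a factor of the same family, and serve here only to show where shBMAL1 differs from another knockdown. 786-O is an established line from a human clear cell renal cell carcinoma. It lacks functional VHL, the ubiquitin ligase that marks hypoxia-inducible factors for degradation, and HIF2α is therefore stable at normal oxygen. All groups were infected with lentivirus that encoded the shRNA in pLKO.1 vectors, were selected with puromycin and were grown in DMEM with fetal bovine serum. No treatment to synchronise the clock and no time of harvest is given for these samples. The labels call the libraries biological replicates without saying whether each came from its own infection, so the p values measure the spread between these libraries. With 1 shRNA per gene in these libraries, loss of BMAL1 and any effect of this shRNA on other transcripts cannot be told apart. Both knockdowns share the 3 shControl libraries, so a change found in both cannot be told apart from a level particular to those controls.

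BMAL1 pairs with CLOCK through its PAS domains and binds E-boxes, short DNA elements, in the genes of its own repressors. PER and CRY proteins feed back on the pair within a day, and the nuclear receptors NR1D1 and NR1D2 repress BMAL1 in turn. In kidney and liver the same pair sets daily rhythms of transporters, metabolic enzymes and secreted proteins. BMAL1 and ARNT belong to the same bHLH-PAS family, and HIF2α, which drives the hypoxia response, binds DNA with such a partner. The design therefore asks which transcripts depend on BMAL1 in these cells, and the account here extends from the clock to every other program in the table.

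Libraries held between 33793067 and 35444757 estimated read counts assigned to genes. Mitochondrial genes took 5.50% to 7.19% of the reads in shControl, 8.78% to 9.73% in shBMAL1 and 7.64% to 8.79% in shARNT. At least 1 read was found for 20074 to 20204 genes in shControl and for 20708 to 20780 in shBMAL1. The shControl and shBMAL1 libraries did not overlap in either measure. Pairs of libraries within a group differed by more than sampling noise, and no library was a copy of another. The 10 markers of the renal carcinoma line were present in all groups, with 4 lower and 2 higher in shBMAL1. At their levels 36.1% of all genes were lower and 18.3% higher. The 2 that rose were PAX2 and CA9, by 0.43 and 1.05 on the log2 scale, and PAX8 and VIM were among those that fell. PAX8, a renal lineage factor, had 10476, 9452 and 10082 normalised counts (reads divided by the size factor of the library) in shControl and 7599.6, 6884 and 6985 in shBMAL1, and VIM, an intermediate filament of mesenchymal cells and of this carcinoma, had 97978 ± 1613 and 84878 ± 5507 (mean ± SD, n = 3, as for all values given in this form). Of 10 blood cell markers, the leukocyte genes PTPRC, CD3E and LYZ and the haemoglobin genes HBB and HBA1 were at 0 in shControl and shBMAL1, and CD68 and CSF1R, which were read in all libraries, fell by 0.31 and 0.88 on the log2 scale. The summed level of the blood cell list was 7603 to 8350 counts in shControl and 5572 to 7010 in shBMAL1, and CD68 gave 7395 and 5992 of it. None of 6 endothelial markers reached a mean of 10 counts in shControl and none was called, and of 4 fibroblast and muscle markers with at least 10 control counts none fell and 1 rose.

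Of 19047 genes tested with DESeq2, 7005 passed an adjusted p of 0.1 (36.8%), of which 3696 were lower (19.4%) and 3309 higher (17.4%) in shBMAL1. The median log2 fold change of all tested genes was 0.02. Called falls were most frequent among abundant transcripts, and changes of 2-fold or more in either direction were mostly among scarce ones. Among the 558 genes with a mean over 10000 counts, 48.8% were lower and 16.9% higher, whereas among the 3782 genes with a mean of 10 to 100 counts, 7.59% were lower and 17.9% higher. A called change of at least 2-fold was found in 7 lower and 7 higher genes of the first class and in 197 lower and 460 higher genes of the second. The background of a gene list therefore depends on its levels. For most lists with many abundant genes the share of all genes at the same levels is given beside the count. Such shares are over genes with at least 10 control counts. In all, changes of 2-fold or more were found in 460 genes that fell and 894 that rose, or in 239 and 315 with a mean of at least 100 counts in the higher group.

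shBMAL1 was also set directly against shARNT, which uses none of the control libraries. Of 17728 genes tested there, 6438 differed (36.3%), with 3290 lower (18.6%) and 3148 higher (17.8%) in shBMAL1. Below, "direct" names this comparison, with the sign of shBMAL1 over shARNT. The 3 shARNT libraries were set against the same controls as shBMAL1, so their values are given side by side and not as a second line of evidence.

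The targeted gene was examined first. ARNTL (chromosome 11, 13298199 to 13408813, plus strand of GRCh37, protein-coding) had 752, 797 and 735 in shControl and 346, 292 and 339.8 in shBMAL1 normalised counts. The groups were far apart. DESeq2 gave a log2 fold change of −1.23, with a standard error (SE) of 0.11 and an adjusted p of 2.5e-25. In shARNT the gene had 676, 656 and 568 counts, all above the shBMAL1 libraries (direct −0.96, adjusted p 1.43e-13). ARNT went from 2352 ± 184 to 2014 ± 76.2 in shBMAL1 (log2 fold change −0.23, SE 0.08, adjusted p 0.0187), a call lost without control replicate 2 or shBMAL1 replicate 2, and was at 1239, 1238 and 1199 counts in the libraries in which it was targeted.

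Clock genes with an E-box near their start were set beside their response. The letters CACGTG, the E-box that CLOCK and BMAL1 bind, were searched on both strands in a RefSeq window (GRCh38.p14) of 250 bases before to 50 bases after the gene start. The word was in 7.43% of 27305 such windows and in 5 of the 20 windows of tested clock genes. Among all tested genes it was in 8.96% of the windows of those that fell, 10.6% of those that rose and 9.07% of those not called. All are shown because the binding element of the targeted factor is then seen beside the response of its gene, with the E-box in capitals and the flanks in lower case.
PER1: acccaggtcCACGTGcgcccgtgt
TEF: cgacagctcCACGTGctgcagctg
BHLHE40: tccaaCACGTGagactcatg
BHLHE41: tacgttccgCACGTGagctgggtg
CIART: aactagagtCACGTGttaccggcg
CIART, the next E-box toward the start: agggggaggCACGTGccgggccgc
CIART, the E-box nearest the start: gccgggccgCACGTGtctgggagg
These windows lie at chr17:8152563-8152586 (minus strand), chr22:41367251-41367274 (plus), chr3:4979187-4979206 (plus), chr12:26125071-26125094 (minus) and, for CIART, chr1:150282416-150282439, chr1:150282474-150282497 and chr1:150282488-150282511 (plus). The E-box began 173 bases before the start in PER1, 195 in TEF, 245 in BHLHE40, 48 in BHLHE41, and 129, 71 and 57 in CIART. No such word was in the windows of ARNTL, NR1D1, PER2, PER3, CRY1 or CRY2, which says only that these letters are not in that stretch.

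Clock outputs fell for the most part, and the most lowered did not carry the word in their window. NR1D1 (chromosome 17, 38249046 to 38256842, minus strand), the heme receptor that represses ARNTL, had 1116, 1019 and 1207 in shControl and 384, 293 and 317 in shBMAL1 (log2 fold change −1.75, SE 0.12, adjusted p 1.01e-47). PER3, a period gene that binds CRY proteins, had 1168, 1139.5 and 1066 in shControl and 523, 540.2 and 416 in shBMAL1 (−1.19, SE 0.11, adjusted p 1.24e-25). In both genes every shBMAL1 library lay below every control library. Both also lay below shARNT, where NR1D1 had 1435, 1256 and 1427 and PER3 1524, 1525 and 1477 counts (direct −2.05, adjusted p 3.31e-72, and −1.61, adjusted p 2.92e-53). NR1D2, the paralogue of NR1D1, went from 1355 ± 145 to 894 ± 145 (log2 fold change −0.60, SE 0.12, adjusted p 2.36e-06). Of the 4 called genes whose E-box is shown, PER1 fell by 0.53, BHLHE40 by 0.34 and BHLHE41 by 0.30, and TEF fell by 0.36 (adjusted p 0.0797), a call lost under 10 of the 15 alternatives tried. CIART, a repressor of the clock pair with 3 E-boxes in its window, had 294, 319.9 and 344 in shControl and 311, 301 and 249 in shBMAL1 and was not called (log2 fold change −0.16, SE 0.14, adjusted p 0.465), although it was lower than in shARNT (direct −1.03, adjusted p 1.36e-15).

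PER2 and CRY2, repressors of the same loop, went the other way. PER2 rose from 419.7 ± 15.4 to 568 ± 42.4 (log2 fold change 0.43, SE 0.11, adjusted p 0.000833) and CRY2 from 291 ± 21.004 to 415 ± 24.3 (log2 fold change 0.51, SE 0.13, adjusted p 0.000531), while CRY1 fell by 0.30. Among the activators, CLOCK, the DNA-binding partner of BMAL1, went from 1882 ± 144 to 1402 ± 21.95 (log2 fold change −0.43, SE 0.08, adjusted p 2.31e-06), and ARNTL2, the paralogue of ARNTL, fell by 0.58. BTRC, an F-box protein that targets PER proteins for degradation, fell by 0.65, and NFIL3, a repressor of clock output genes, rose by 0.32 on the log2 scale. Of 22 clock genes with at least 10 control counts 13 fell and 3 rose, and at their levels 26.9% of all genes were lower. In the group of repressors and outputs alone, 8 of 12 fell and 2 rose, with a median log2 fold change of −0.32. The plot of single libraries shows these genes beside the most changed genes of other programs.

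**Figure D1:**
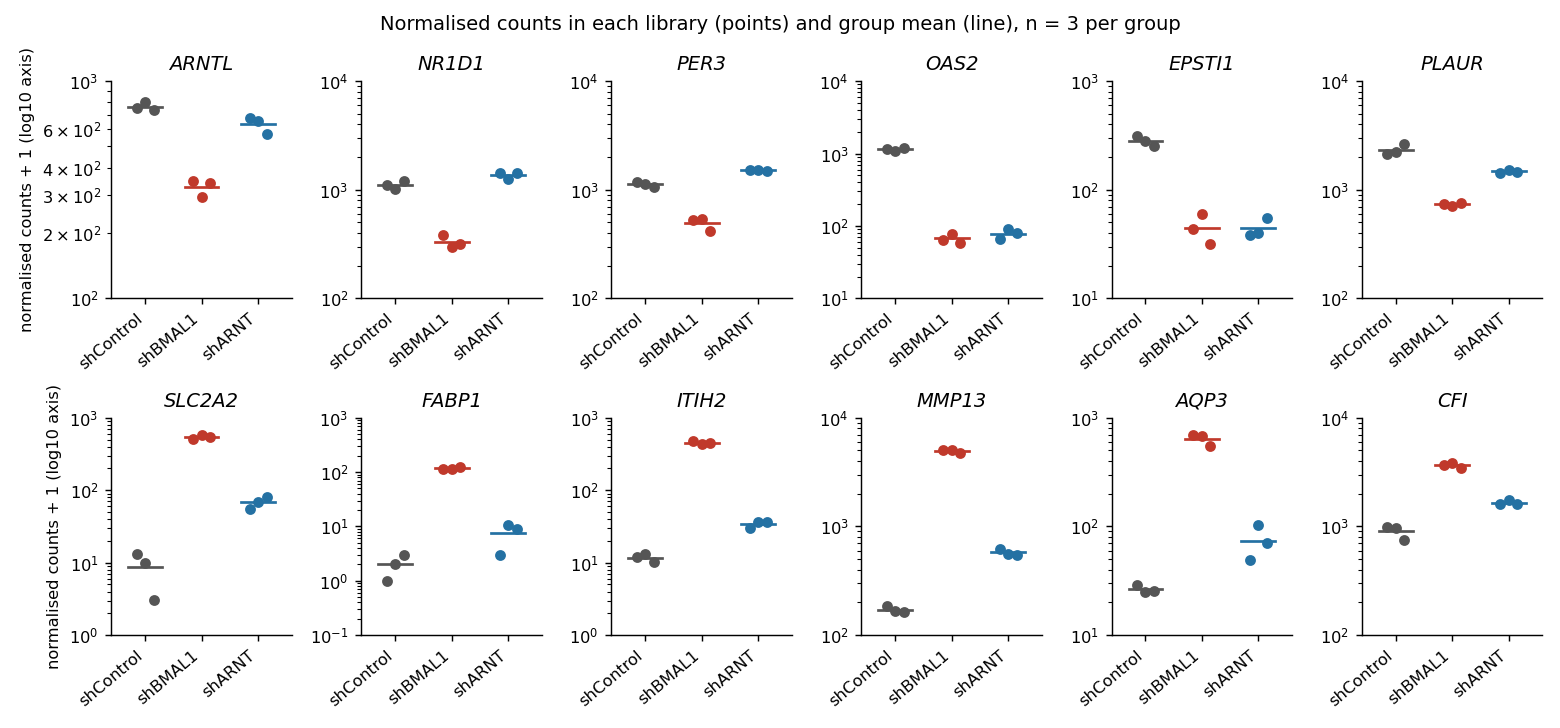
Normalised counts (log10 axis, with 1 added) of 12 genes in each of the 9 libraries, with a point per library and a line at the group mean. ARNTL, NR1D1, PER3, OAS2, EPSTI1 and PLAUR were lower in all 3 shBMAL1 libraries than in any control library, and SLC2A2, FABP1, ITIH2, MMP13, AQP3 and CFI were higher.

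Genes of the interferon response held several of the steepest falls in the table, with OAS2 and MX2 the most lowered of the genes named by size of change. These genes are switched on by interferon through factors such as STAT2 and IRF9, or directly by IRF3 and IRF7, and encode proteins that sense, degrade or trap viral RNA. Of 73 tested members 51 fell and 7 rose, or 4 rose without control replicate 3 or shBMAL1 replicate 2, with a median log2 fold change of −0.64. At the levels of these genes 28.2% of all genes were lower and 20.1% higher. Relative to the control mean, the median member stood at −0.67, −0.59 and −0.66 on the log2 scale in the 3 shBMAL1 libraries and at 0.02, −0.00 and −0.02 in the controls.

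The binding word of these factors, the interferon-stimulated response element (GAAA, any 2 bases, then GAAA, searched on both strands), was looked for in the same promoter windows after the values were seen. It was in 3.65% of all RefSeq windows and in 29 of 54 windows of tested interferon genes. It was in 23 of the 39 such genes that fell, 2 of the 4 that rose and 4 of the 11 not called. The windows below show the element in 4 genes that fell and, last, in B2M, whose level is given with the MHC genes.
EPSTI1: tgattctgaGAAACCGAAActcagctgt
IFI44L: cctagtgagGAAAAAGAAAgttagtggc
ISG15: cgggaaaggGAAACCGAAActgaagcca
IFIT3: ttaaattagTTTCACTTTCcagtttcct
B2M: taagaaaagGAAACTGAAAacgggaaag
They lie at chr13:42992273-42992300 (minus strand), chr1:78620366-78620393, chr1:1013381-1013408, chr10:89327866-89327893 and chr15:44711370-44711397 (plus strand) of GRCh38.p14. The element began 50, 73, 107, 122 and 138 bases before the start, and in IFIT3 it reads on the other strand.

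The group with the lowest median held the OAS, MX and IFIT families and other effectors, some of which bind double-stranded RNA, with 13 of 14 members lower and none higher (median −1.12). OAS2 (chromosome 12, 113416200 to 113449528, plus strand), a synthetase of oligoadenylates, had 1164, 1078 and 1183 in shControl and 63.5, 77.6 and 57.8 in shBMAL1 (log2 fold change −4.11, SE 0.14, adjusted p 2.16e-175). The groups were an order of magnitude apart. OAS1 had 1896, 1962 and 1815 in shControl and 273, 261 and 177 in shBMAL1 (−3.00, SE 0.12), and OAS3 had 3863 ± 107 in shControl and 929 ± 37.2 in shBMAL1 (−2.06). MX1 and MX2, GTPases that trap viral nucleocapsids, fell by 2.50 and 3.42. MX2 had 287, 269 and 296 in shControl and 26.8, 28.2 and 24.5 in shBMAL1. EIF2AK2, the kinase PKR that stops translation on double-stranded RNA, fell by 0.63, and ADAR, which edits such RNA, by 0.23.

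Among the other effectors 24 of 32 fell and 3 rose, where 28.8% of all genes at their levels were lower and 19.9% higher. EPSTI1 had 311, 279 and 253 in shControl and 42.7, 58.5 and 30.4 in shBMAL1 (log2 fold change −2.68, SE 0.22, adjusted p 1.38e-31), and IFI27, a common marker of the response, had 606, 639.8 and 672 in shControl and 156, 157 and 117 in shBMAL1 (−2.16, SE 0.14). The groups were far apart in both genes. IFI44L fell by 1.58, IFI6 by 1.31 and CMPK2 by 2.37. IFITM3, an abundant membrane protein that blocks viral entry, went from 16272 ± 534 to 10708 ± 1727 (−0.61). The 3 that rose were APOL1, GBP2 and TRIM5, with log2 fold changes of 0.50, 1.03 and 0.22. The TRIM5 call was lost without any 1 of 5 libraries. APOL1, which forms channels and is also made by liver, went from 33836 ± 2728 to 47975 ± 2627. ISG15, the ubiquitin-like tag of this response, had 902, 881 and 1101 in shControl and 350.5, 347 and 358 in shBMAL1 (−1.45, SE 0.12), and its ligase HERC5 and protease USP18 fell by 1.02 and 1.31.

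The sensors and factors upstream of these genes moved less, with 10 of 20 lower and 4 higher (median −0.23). The count of higher genes was 2 without control replicate 3 or shBMAL1 replicate 2. At the levels of this group 29.6% of all genes were lower and 19.8% higher. IRF7, the factor that amplifies the response, went from 232 ± 23.7 to 80.1 ± 7.98 (−1.53), IRF9 from 1292 ± 81.7 to 748 ± 66.2 (−0.79) and the RNA sensor IFIH1 from 1059 ± 93.4 to 525 ± 6.72 (−1.01). STAT2, which acts with IRF9, fell by 0.20. Of 8 interferon genes listed, IFNE alone had enough reads for a test and was not called (means of 2.69 and 8.23 counts), and the other 7 did not pass the filter on low counts.

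In shARNT the median change of the list was −0.49. OAS2 had 64.3, 89.4 and 79.5 and EPSTI1 37.02, 39.3 and 53.7 counts there, and the direct comparison called neither (−0.23, adjusted p 0.574, and 0.01, adjusted p 0.985). For such genes a fall in both knockdowns and a level particular to the shared controls cannot be told apart. In the direct comparison 17 of 73 members were lower and 12 higher, beside 18.6% and 17.8% of all genes. OASL was among those that differed, with 465 ± 9.63 counts in shARNT and 166 ± 10.4 in shBMAL1 (direct −1.48, adjusted p 5.48e-26).

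MHC class I genes, which share interferon control, split by role. None of the 7 chains fell, where 38.4% of all genes at their levels were lower. B2M, the invariant light chain, had 16734 ± 325 and 16931 ± 1778 counts and was not called (0.01, adjusted p 0.92). HLA-C rose by 0.21. HLA genes are near-identical in parts, so reads may be split among them. Peptide supply, in contrast, had 8 of 15 genes lower and 4 higher. The shares of all genes at these levels were 36.5% lower and 18.9% higher. NLRC5, the activator of class I transcription, had 1197, 1045 and 987 in shControl and 588, 558 and 622 in shBMAL1 (−0.87, SE 0.10), and the peptide transporter genes TAP1 and TAP2 fell by 0.80 and 0.56. TAPBPL and PDIA3, which load or edit peptides, rose by 0.55 and 0.36, and the count of higher genes was 2 without control replicate 1 or 3.

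**Figure D2:**
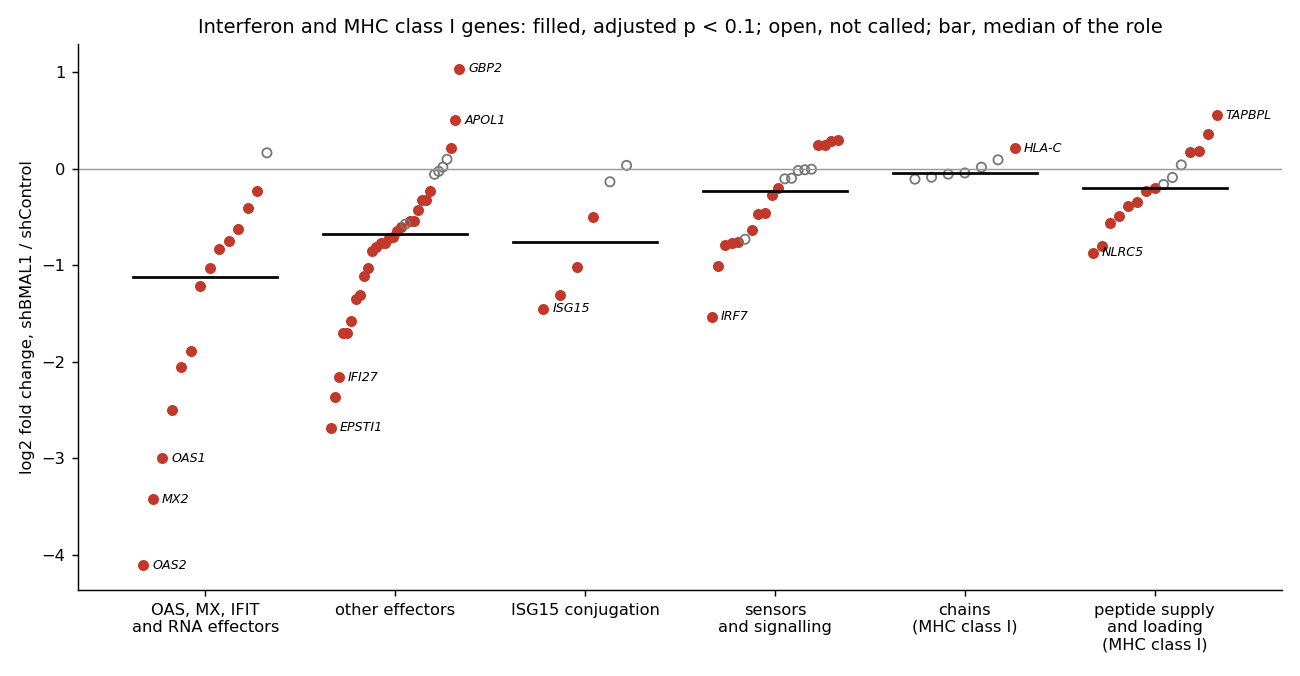
Log2 fold change (shBMAL1 over shControl) of each tested gene of the interferon and MHC class I lists, by role, with filled points for genes at an adjusted p under 0.1 and a bar at the median of each role. The group of OAS, MX, IFIT and RNA effectors sits lowest (median −1.12), sensors and signalling at −0.23, and the MHC chains at −0.04.

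Many transcripts of liver and kidney tubule were higher in shBMAL1, as were several of the factors that regulate them. The renal tubule and the hepatocyte share much of their transport and secretion program, which HNF4 and FOXA factors drive. Many of these genes are nearly silent in the controls, and a gene that passed the count filter only through shBMAL1 had to be higher. Counts are therefore given for genes with a mean of at least 10 counts in shControl, of which 23.8% of all 15424 tested were lower and 19.2% higher.

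Plasma protein genes came first. Of 64 listed, 29 were tested and 18 of these had at least 10 control counts, of which 11 rose and 2 fell (median 0.71). ITIH2 (chromosome 10, 7745279 to 7791483, plus strand), a chain that stabilises hyaluronan, had 11.1, 11.995 and 9.10 in shControl and 472, 429 and 446 in shBMAL1 (log2 fold change 5.39, SE 0.29, adjusted p 1.29e-73). SERPINF2, the inhibitor of plasmin, had 44.3, 43.98 and 36.4 in shControl and 643, 589 and 567 in shBMAL1 (3.85, SE 0.18). ITIH4 had 50.9 ± 3.77 and 364 ± 54.7 (2.83), and transferrin (TF), the iron carrier, 12.4 ± 3.23 and 85.9 ± 19.8 (2.79). In all 4 genes the 3 shBMAL1 libraries lay above the 3 controls. The protease inhibitor SERPINA1 was already abundant and went from 5560.1 ± 119.8 to 11192 ± 1176 (log2 fold change 1.01, SE 0.08, adjusted p 6.97e-37), and the copper carrier CP from 3886 ± 133 to 6094 ± 404 (0.65). In shARNT SERPINA1 had 2492, 2595 and 2381 counts, below the controls.

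Several members were close to absent in the controls. LBP, which binds bacterial lipopolysaccharide, had 3.02, 12.99 and 3.03 in shControl and 285, 272 and 171 in shBMAL1 (5.25, SE 0.62). Fibrinogen chains appeared in shBMAL1, with FGB at 2.01, 2.999 and 0 in shControl and 43.7, 44.3 and 47.98 in shBMAL1 and FGG at 0, 0 and 1.01 in shControl and 20.9, 49.4 and 32.3 in shBMAL1. FGG had 1 read in all 3 control libraries together against 103 in shBMAL1. The ratio was 102 with a 95% interval of 17.9 to 4057, which covers counting error only. The alpha chain FGA did not pass the filter on low counts. APOH and AMBP, other carriers, rose by 1.74 and 1.58. The 2 that fell were the acute phase gene SAA1 (from 96.2 ± 20.04 to 58.8 ± 16.3, −0.71) and the coagulation factor F12 (−0.40). Both calls rested on single libraries, as the adjusted p was 0.204, 0.132 and 0.211 for SAA1 without control replicate 2, control replicate 3 or shBMAL1 replicate 3, and 0.137 for F12 without control replicate 3.

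Complement is the plasma cascade that opsonises and lyses cells. With at least 10 control counts, 12 of 21 genes rose and 3 fell (median 0.89). CFI, a protease that inactivates C3b, had 978, 971 and 744 in shControl and 3658, 3844 and 3446 in shBMAL1 (log2 fold change 2.02, SE 0.10, adjusted p 7.93e-92), and the groups were far apart. C3 went from 779 ± 35.5 to 1466 ± 84.9 (0.91), C5 from 529.9 ± 10.7 to 986 ± 76.9 (0.89) and CFB from 233 ± 53.9 to 442 ± 75.5 (0.92). The near-identical C4A and C4B rose by 2.17 and 2.24. C1S, a protease of the first step, fell by 0.53, a call lost without any 1 of 4 libraries. CD46, a receptor on the cell surface, fell by 0.27 and C3AR1, the receptor of the C3a fragment, by 1.31. C3 was lower than in shARNT, where it had 1851, 1643 and 1519 counts (direct −0.19, adjusted p 0.0983), and CFI was higher (direct 1.14, adjusted p 4.55e-51).

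Regulators of these programs were measured beside their targets. Of 22 lineage factors with at least 10 control counts, 12 rose and 3 fell (median 0.43). PPARGC1A, the coactivator of mitochondrial and gluconeogenic genes, had 50.3, 60.98 and 36.4 in shControl and 384, 432 and 428 in shBMAL1 (log2 fold change 3.07, SE 0.19, adjusted p 1.15e-55). NR1H4, the bile acid receptor, had 119, 116 and 113 in shControl and 629, 734 and 690.4 in shBMAL1 (2.56, SE 0.14). FOXA2 went from 505 ± 39.3 to 806 ± 76.2 (0.67). CEBPD rose by 1.00 and PPARA, the fatty acid receptor, by 0.43. Among kidney factors PAX2 and SALL1 rose by 0.43 and 0.34, and PAX8 fell from 10004 ± 516 to 7156 ± 387 (−0.49). HNF4A did not pass the filter on low counts.

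Transporters and membrane proteins of the tubule followed. Of 36 genes with at least 10 control counts, 17 rose and 6 fell, or 2 fell without control replicate 1 and 3 without shBMAL1 replicate 3 (median 0.34). Among the solute carriers 10 of 18 rose and 2 fell (median 0.50). Membrane and brush border genes moved less as a group, with 7 of 18 higher and 4 lower (median 0.05). AQP3 (chromosome 9, 33441154 to 33447594, minus strand), a water and glycerol channel of the basolateral membrane, had 28.2, 23.99 and 24.3 in shControl and 689, 677 and 544 in shBMAL1 (log2 fold change 4.64, SE 0.21, adjusted p 2.94e-102). SLCO4C1, a renal carrier of organic anions, had 20.1, 33.99 and 24.3 in shControl and 217, 290.3 and 212 in shBMAL1 (3.20, SE 0.26), and the phosphate and urate carriers SLC17A1 and SLC17A3 rose by 2.59 and 2.09. PDZK1, the scaffold that holds such carriers at the brush border, went from 1552 ± 110.4 to 7231 ± 481 (log2 fold change 2.22, SE 0.08, adjusted p 2.91e-175), and ATP1B1, the sodium pump subunit, from 9641 ± 659 to 26649 ± 1694 (1.46). KCNK3, an acid-sensitive potassium channel, was among the steepest falls, with 386, 396 and 371 in shControl and 45.7, 41.3 and 45.05 in shBMAL1 (−3.13, SE 0.19). The drug exporter ABCG2 fell by 1.54. In shARNT SLCO4C1 had 24.9, SLC17A3 237, PDZK1 1964 and ATP1B1 7143 counts on average, and all were higher in shBMAL1 (direct adjusted p of at most 4.63e-34).

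FABP1, the liver fatty acid binding protein (chromosome 2, 88422501 to 88427581, minus strand), had 0, 1.000 and 2.02 in shControl and 114, 114 and 122 in shBMAL1. This was 3 reads over the control libraries against 353 in shBMAL1, a ratio of 116 with a 95% interval of 39.4 to 566. DHRS9, a retinol dehydrogenase, went from 25.4 ± 13.2 to 223 ± 14.9 (3.13). In shARNT FABP1 had 1.95, 9.82 and 7.95 counts.

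**Figure D3:**
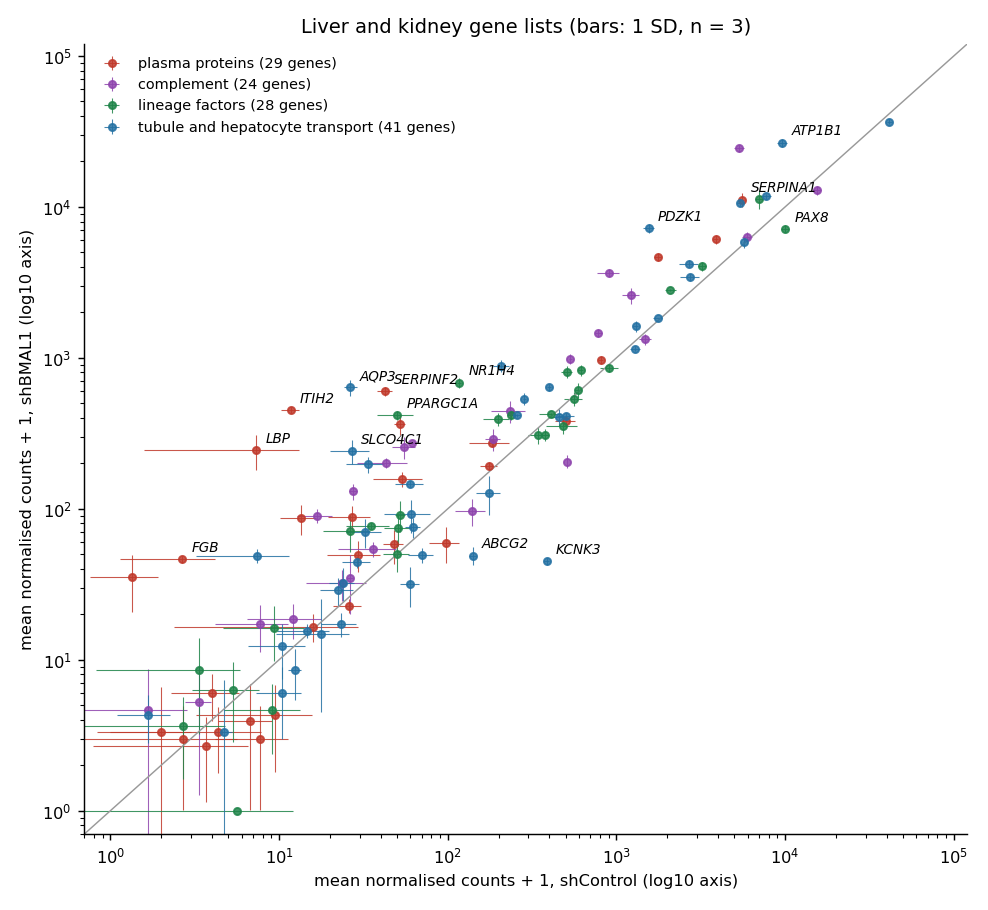
Mean normalised counts in shControl (x) and shBMAL1 (y), with 1 added and both axes on a log10 scale, of every tested gene of the plasma protein, complement, lineage factor and transport lists, with horizontal and vertical bars of 1 SD (n = 3). Points above the diagonal line of equal level, such as ITIH2, LBP, SLCO4C1 and AQP3, were higher in shBMAL1, and KCNK3 lay far below it.

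Transcripts of glucose carriers moved in both directions, and their sum was lower. The summed level of the SLC2A family was 82690 to 90250 counts in shControl and 53600 to 62390 in shBMAL1, and SLC2A1 gave most of it in both groups. SLC2A2 (chromosome 3, 170714136 to 170744532, minus strand), the low-affinity carrier GLUT2 of hepatocytes and proximal tubule, had 12.1, 8.996 and 2.02 in shControl and 510.3, 586 and 543 in shBMAL1 (log2 fold change 6.15, SE 0.33, adjusted p 2.1e-74). In shARNT it had 54.6, 68.7 and 78.5 counts, above the controls and below every shBMAL1 library (direct 3.02, adjusted p 6.67e-72). SLC2A1, the ubiquitous GLUT1 carrier and a hypoxia-response gene, had 78784, 80479.5 and 72829.6 in shControl and 53661, 48732 and 45635 in shBMAL1 (log2 fold change −0.65, SE 0.07, adjusted p 2.69e-18), and SLC2A3, a high-affinity neuronal type, fell by 1.19. SLC2A4, the insulin-responsive carrier, and SLC2A12 rose by 1.79 and 1.01. Among 12 SLC2A genes with at least 10 control counts, 7 fell and 3 rose, where 23% of all genes at their levels were lower and 19.5% higher. SLC2A14 is near-identical to SLC2A3 and its counts are uncertain.

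Glycolysis genes were lower more often than higher, by small amounts. Of 31 tested, 17 were lower, 4 of them by at least 1.5-fold, and 6 higher, or 3 higher without shBMAL1 replicate 2, with a median log2 fold change of −0.24. At their levels 35.2% of all genes were lower and 18.4% higher. HK1, which phosphorylates glucose, went from 15148 ± 571 to 9242 ± 668 (−0.71), HK2 from 1388 ± 95.6 to 889 ± 41.04 (−0.65), ENO2 from 4584 ± 269 to 3034 ± 185 (−0.60), and the lactate exporter SLC16A3 from 26689 ± 678 to 18208 ± 2490.3 (−0.55). PFKFB3, whose product activates phosphofructokinase, rose from 8699 ± 90.7 to 12406 ± 574 (0.51), and PKM was not called (−0.11). LDHB, a lactate dehydrogenase, rose by 0.40. In glycogen metabolism, the phosphorylases PYGL and PYGB fell by 0.97 and 0.87, and PPP1R3C, which tethers phosphatase to glycogen, rose by 1.06. Of 14 gluconeogenesis and glycogen genes with at least 10 control counts, 4 were lower and 4 higher. At their levels 29% of all genes were lower and 18.6% higher. The direct comparison called 11 of the 31 glycolysis genes lower and 8 higher, beside 18.6% and 17.8% of all genes.

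Hypoxia-response genes, many of them direct targets of HIF2α, fell in 35 and rose in 12 of the 58 cases with at least 10 control counts (median −0.27). At their levels 33.2% of all genes were lower and 19% higher. Among angiogenic and secreted factors and their receptors, 13 of 18 were lower and 2 higher (median −0.77). The chemokine receptor CXCR4 went from 69.7 ± 14.04 to 17.9 ± 2.80 (−1.96), ANGPTL4 from 2983 ± 259 to 1391 ± 207 (−1.10), STC1 from 1209 ± 198 to 568 ± 44.6 (−1.09) and VEGFA from 10599 ± 302 to 7738 ± 607 (−0.46). EDN1, IGFBP3 and CA9 rose, by 1.04, 0.78 and 1.05. EPAS1, which encodes HIF2α, had 11765, 10799 and 10764 in shControl and 11325, 10241 and 10402 in shBMAL1 and was not called (−0.06, adjusted p 0.546). In the direct comparison 32 of 58 members were higher and 10 lower in shBMAL1, beside 17.8% and 18.6% of all genes. The median change of the list in shARNT against the controls was −0.48. The core of the hypoxia element, ACGTG, which also lies within CACGTG, was in 12 of 25 windows of hypoxia genes that fell, 7 of 13 of those that rose and 6 of 10 of those not called. Among all tested genes it was in 26.5%, 25.0% and 25.1% of these classes.

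Transcripts of several matrix metalloproteinases rose. MMP13 (chromosome 11, 102813724 to 102826461, minus strand), collagenase 3, had 184, 165 and 162 in shControl and 5017, 4998 and 4736 in shBMAL1 (log2 fold change 4.85, SE 0.10, adjusted p returned as 0 by the software). MMP7, matrilysin, had 182, 173 and 147 in shControl and 951, 1004 and 899 in shBMAL1 (2.51, SE 0.12), and MMP1, interstitial collagenase, had 137, 174 and 159 in shControl and 693, 734 and 706 in shBMAL1 (2.18, SE 0.13). Of 14 such genes with at least 10 control counts 7 rose and 2 fell, the latter MMP14 (−0.31) and MMP24 (−0.33). At the levels of these 14 genes 18.7% of all genes were higher and 21.9% lower. MMP13 was also above the controls in shARNT, at 621, 558 and 551, and higher in shBMAL1 (direct 3.09, SE 0.08). TIMP2, an inhibitor of these enzymes, went from 2040.5 ± 121 to 839 ± 62.9 (log2 fold change −1.28, SE 0.09, adjusted p 1.22e-45) and TIMP1 from 8711 ± 467 to 11699 ± 437 (0.42). In the ADAM and ADAMTS families 8 of 21 genes rose and 7 fell, from ADAM28 at 1.77 to ADAMTS2 at −1.95. The count of raised genes was 4 without control replicate 3 and 5 without shBMAL1 replicate 3. That of lowered genes was 4 without control replicate 1. At the levels of these families 19.2% of all genes were higher and 24.1% lower.

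Genes of the plasminogen and tissue factor system were lower more often than higher. PLAUR (chromosome 19, 44150247 to 44174699, minus strand), the urokinase receptor, had 2113, 2229 and 2623 in shControl and 734, 713 and 747 in shBMAL1 (log2 fold change −1.67, SE 0.09, adjusted p 2.35e-67), and its ligand PLAU had 5540.0, 6019.6 and 5266 in shControl and 2365, 2308 and 2194 in shBMAL1 (−1.30, SE 0.07). All shBMAL1 libraries were below all control libraries in both genes. F3, tissue factor, went from 2194 ± 115 to 762 ± 47.4 (−1.53) and the thrombin receptor THBD from 108 ± 14.1 to 29.2 ± 9.40 (−1.89). Of 19 tested genes 9 fell, where 30.0% of all genes at their levels were lower, and 2 rose, the latter TFPI2 (0.44) and F2R (0.29, not called without shBMAL1 replicate 1). PLAUR and PLAU were lower than in shARNT (direct −1.01, adjusted p 2.51e-31, and −0.43, adjusted p 3.54e-07).

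Matrix and adhesion genes moved in both directions. Of 33 collagen and collagen-processing genes with at least 10 control counts, 11 fell and 10 rose. Among all genes at these levels 29.3% were lower and 18.7% higher. COL5A2 fell by 1.38 and the crosslinking enzymes LOX and LOXL1 by 1.11 and 1.06, while COL14A1 rose by 1.76 and COL6A1 by 0.57. LAMA5, a laminin chain of epithelial basement membrane, had 1117, 1117 and 1153 in shControl and 5031, 4390.1 and 4829.6 in shBMAL1 (log2 fold change 2.07, SE 0.08, adjusted p 2.39e-158), whereas LAMB3 fell by 1.33 and the integrin genes ITGB5 and ITGA6 by 0.80 and 0.71. ITGB8 rose by 1.09. TGFBI, a matrix protein induced by TGF-beta that binds integrins, went from 88033 ± 5071 to 161204 ± 8956 (0.87), while in shARNT it had 62953 ± 3559 (direct 1.36, adjusted p 2.3e-91). Of 33 epithelial and mesenchymal markers with at least 10 control counts 11 fell and 7 rose, and at their levels 26.8% of all genes were lower and 18.6% higher. CLDN2, a tight junction protein of the proximal tubule, rose from 847 ± 93.4 to 2749 ± 226 (1.70), and CDH1, E-cadherin, which was under 10 counts in the controls and is not in that count, from 9.73 ± 5.56 to 48.7 ± 6.87 (log2 fold change 2.32, SE 0.47, adjusted p 7.87e-06). CLDN1 fell by 1.01, the mesenchymal factors ZEB1 and SNAI2 by 0.63 and 0.58, and CDH2, N-cadherin, was not called (−0.05). By role, 6 of 16 mesenchymal genes fell and 3 rose (median 0.07). Of 17 epithelial genes 5 fell and 4 rose (median −0.13), so neither role moved as a whole.

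Groups of growth factor genes differed in their counts. In the group of MAPK feedback genes, which rise with ERK activity, 10 of 20 fell and 2 rose, and at their levels 24.8% of all genes were lower. ETV4 had 352, 359.9 and 401 in shControl and 115, 93.7 and 62.7 in shBMAL1 (log2 fold change −2.04, SE 0.19, adjusted p 1.85e-25), FOSL1 went from 11868 ± 1797 to 4547 ± 458 (−1.39), and PHLDA1 fell by 1.21. EGR1, an immediate early factor of the same pathway, rose from 230.3 ± 6.97 to 1121 ± 145 (log2 fold change 2.28, SE 0.12, adjusted p 7.27e-76). In the EGF and IGF group 9 of 19 genes with at least 10 control counts fell and 4 rose. The shares of all genes at these levels were 29.5% lower and 19% higher. Of the 6 listed ligands of the EGF receptor, HBEGF, AREG, EREG and TGFA fell, by 1.58, 0.82, 0.68 and 0.25, and EGF and BTC were not called (−0.12 and 0.47). The receptor EGFR rose by 0.48. In the TGF-beta group 7 of 21 fell and 8 rose, where 27.2% of all genes at their levels were lower and 19.9% higher. The activin chain INHBA fell from 468 ± 56.96 to 125 ± 2.44 (−1.90), TGFBR1 and TGFBR2 by 0.86 and 0.55, and TGFB1 rose by 0.76 along with the BMP targets ID1 and ID3, at 1.14 and 1.63. Among YAP targets CYR61 rose by 0.71, in a group with 8 of 17 higher and 4 lower. At the levels of this group 20.3% of all genes were higher and 30.2% lower.

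Chemokines and cytokines fell in 12 of 22 cases with at least 10 control counts and rose in 2, and at their levels 18.4% of all genes were lower. IL6 had 246, 288 and 249 in shControl and 81.4, 93.7 and 77.4 in shBMAL1 (log2 fold change −1.63, SE 0.18, adjusted p 2.53e-17), CXCL5 went from 324 ± 13.5 to 126 ± 17.7 (−1.36) and CSF2 from 102 ± 25.7 to 29.9 ± 8.09 (−1.77). The NF-kB genes NFKB2, RELB and TRAF1, themselves targets of the pathway, fell by 0.99, 0.73 and 1.77, in a group with 11 of 23 lower and 5 higher. At the levels of this group 28.4% of all genes were lower and 20% higher. NFKBIZ and the receptor IL1R1 rose by 1.07 and 1.27. STAT3 was not called (0.05).

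Among cell cycle genes the falls lay mostly in mitosis. Of 42 mitotic genes 29 fell, 3 of them by at least 1.5-fold, and none rose (median −0.27), against 8 lower and 8 higher of 36 S phase genes, or 5 higher without control replicate 3 (median −0.03). At the levels of these groups 35.5% and 34% of all genes were lower. The kinase gene AURKB had 3221, 3169.8 and 3436 in shControl and 1968, 1978 and 2095 in shBMAL1 (log2 fold change −0.70, SE 0.07, adjusted p 3.55e-21), ESPL1, which encodes separase, fell by 0.77, BUB1 by 0.64 and CDC20 by 0.57. PLK1 went from 14742 ± 883 to 10293 ± 925 (−0.52) and MKI67 from 14568 ± 1112 to 11485 ± 722 (−0.35). These are small changes, and the lowest member of the mitotic list stood at −0.77. TOP2A was not called (−0.05). Of 19 G1 regulators 6 fell and 5 rose, where 28.7% of all genes at their levels were lower and 19.8% higher. Log2 fold changes of this group ran from −0.67 to 1.28. CCND1, CCND3 and CDK2 fell by 0.58, 0.67 and 0.51, and the inhibitors CDKN1B, CDKN2C and CDKN1A rose by 0.58, 0.60 and 0.34. In bulk RNA, fewer cells in a phase and less RNA per cell cannot be told apart. Against shARNT 21 mitotic genes were lower and 2 higher, beside 18.6% and 17.8% of all genes. The median change in shARNT was −0.09.

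Proteasome genes fell by small and similar amounts. Of 44 tested 32 were lower, 1 of them by at least 1.5-fold, and none higher (median −0.29), with 10 of 14 core and 22 of 30 cap and assembly genes lower. At their levels 34.5% of all genes were lower. Relative to the control mean the median member stood at −0.21, −0.31 and −0.32 in the shBMAL1 libraries and at −0.01, 0.00 and 0.02 in shARNT. PSMD2, a base subunit of the cap, had 29362, 30626 and 29578 in shControl and 17969, 15785 and 16094 in shBMAL1 (log2 fold change −0.85, SE 0.07, adjusted p 3.98e-36), PSMA7 went from 9541 ± 316 to 6476 ± 225 (−0.56), and PSMB7, a catalytic subunit, from 11223 ± 649 to 7713 ± 608 (−0.54). NFE2L1, the factor that restores proteasome transcription, was not called (−0.09). The direct comparison gave 29 lower and none higher, with 18.6% of all genes lower.

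Protein folding genes split. Heat shock genes fell in 5 of 16 cases and rose in none, where 37.5% of all genes at their levels were lower, with HSPH1 at −0.47 and HSP90AB1 at −0.36. In the unfolded protein response 6 of 21 fell and 6 rose, or 2 to 3 rose without control replicate 1 or 3 or shBMAL1 replicate 1. Among all genes at these levels 35.2% were lower and 19.1% higher. HYOU1, a chaperone of the endoplasmic reticulum, had 11708, 11043 and 11271 in shControl and 5461, 5208 and 5118 in shBMAL1 (−1.11, SE 0.06), whereas PDIA6 and HSP90B1 rose by 0.25 and 0.23. Targets of the integrated stress response, which ATF4 drives, fell in 17 of 29 cases and rose in 2 (median −0.25), and 34.5% of all genes at their levels were lower. ATF4 itself fell by 0.30, TRIB3 from 8100.4 ± 215 to 5488 ± 426 (−0.56) and the phosphatase subunit PPP1R15A by 0.83. In shARNT the median change was −0.56, and 21 of 29 genes were higher and 3 lower in shBMAL1 in the direct comparison. In that comparison 17.8% of all genes were higher and 18.6% lower.

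Lipid synthesis genes fell more often than they rose. In the cholesterol pathway 12 of 26 genes were lower and 1 higher, and in fatty acid synthesis 13 of 20 were lower and 1 higher. At the levels of these groups 33.7% and 35.5% of all genes were lower and 18.7% and 18.5% higher. FASN, the fatty acid synthase, had 21784, 21694 and 23491 in shControl and 13534, 11745 and 13221 in shBMAL1 (log2 fold change −0.80, SE 0.07, adjusted p 1.27e-28), and the acyl-CoA synthetases ACSL1 and ACSL3 fell by 0.78 and 0.61. INSIG1, which restrains cholesterol synthesis, fell by 0.69. SREBF2, the factor that controls the pathway, was not called (−0.06). TM7SF2 and SCD5 were the members that rose, by 1.31 and 1.04. FASN was lower than in shARNT (direct −0.59, adjusted p 1.72e-15), as were 12 of 20 fatty acid genes, beside 18.6% of all genes. In that comparison 2 of the 20 were higher.

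Transcripts of the mitochondrial genome rose, with 10 of 13 protein-coding genes higher and none lower (median 0.52). At their levels 16.8% of all genes were higher and 48.7% lower. COX1, a subunit of cytochrome oxidase, had 427246, 479639 and 534350.0 in shControl and 712084, 779199 and 734601 in shBMAL1 (log2 fold change 0.63, SE 0.08, adjusted p 2.42e-14), and ND4, of complex I, had 288397, 340417 and 395978 in shControl and 525334, 512006 and 489788 in shBMAL1 (0.57, SE 0.09). The controls differed among themselves, with the median member at −0.24, −0.06 and 0.25 relative to the control mean and at 0.45, 0.57 and 0.52 in shBMAL1. In the shARNT libraries it also stood above the controls, at 0.33, 0.30 and 0.66, so the rise was not particular to shBMAL1. Of the nuclear genes of the same complexes 20 of 78 were higher and 8 lower, or 5 lower without control replicate 3. For complexes I and II, 32.7% of all genes at the same levels were lower and 19.2% higher. For complexes III to V these shares were 35.7% and 18.4%. COX7C rose by 1.66, and SDHA and ATP5B fell by 0.37 and 0.48. Of the 13 mitochondrial genes 3 were higher than in shARNT, and 1 was lower, beside 17.8% and 18.6% of all genes.

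Other programs moved in both directions at similar rates. Lysosome and autophagy genes with at least 10 control counts had 16 of 53 lower and 16 higher. The shares of all genes at these levels were 32.5% lower and 18.6% higher. Log2 fold changes of the lysosomal enzyme and membrane genes ran from −1.68 to 1.69, with CTSS at −1.14 and CTSC at 0.87. NRF2 targets had 9 of 26 lower and 8 higher, with GCLM at −0.77 and AKR1C3 at 1.40. Of the 26, 16 were lower than in shARNT and 2 higher, beside 18.6% and 17.8% of all genes. At the levels of these targets 33.2% of all genes were lower and 18.6% higher against shControl. Targets of p53 had 8 of 20 lower and 8 higher, where 25.1% of all genes at their levels were lower and 21.1% higher. Of 13 BCL2 family genes 3 fell and 4 rose, where 24.9% of all genes at their levels were lower and 19.8% higher. BCL2L11 and BMF, which promote cell death, rose by 1.19 and 1.12, BNIP3 by 0.39 and BCL2, which opposes cell death, by 0.68. BIK, BAK1 and BID, which promote it, fell by 2.00, 0.40 and 0.30. BCL2L11 had 1391, 1314 and 1217 in shControl and 2804, 3271 and 2907 in shBMAL1, and the groups were far apart.

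**Figure D4:**
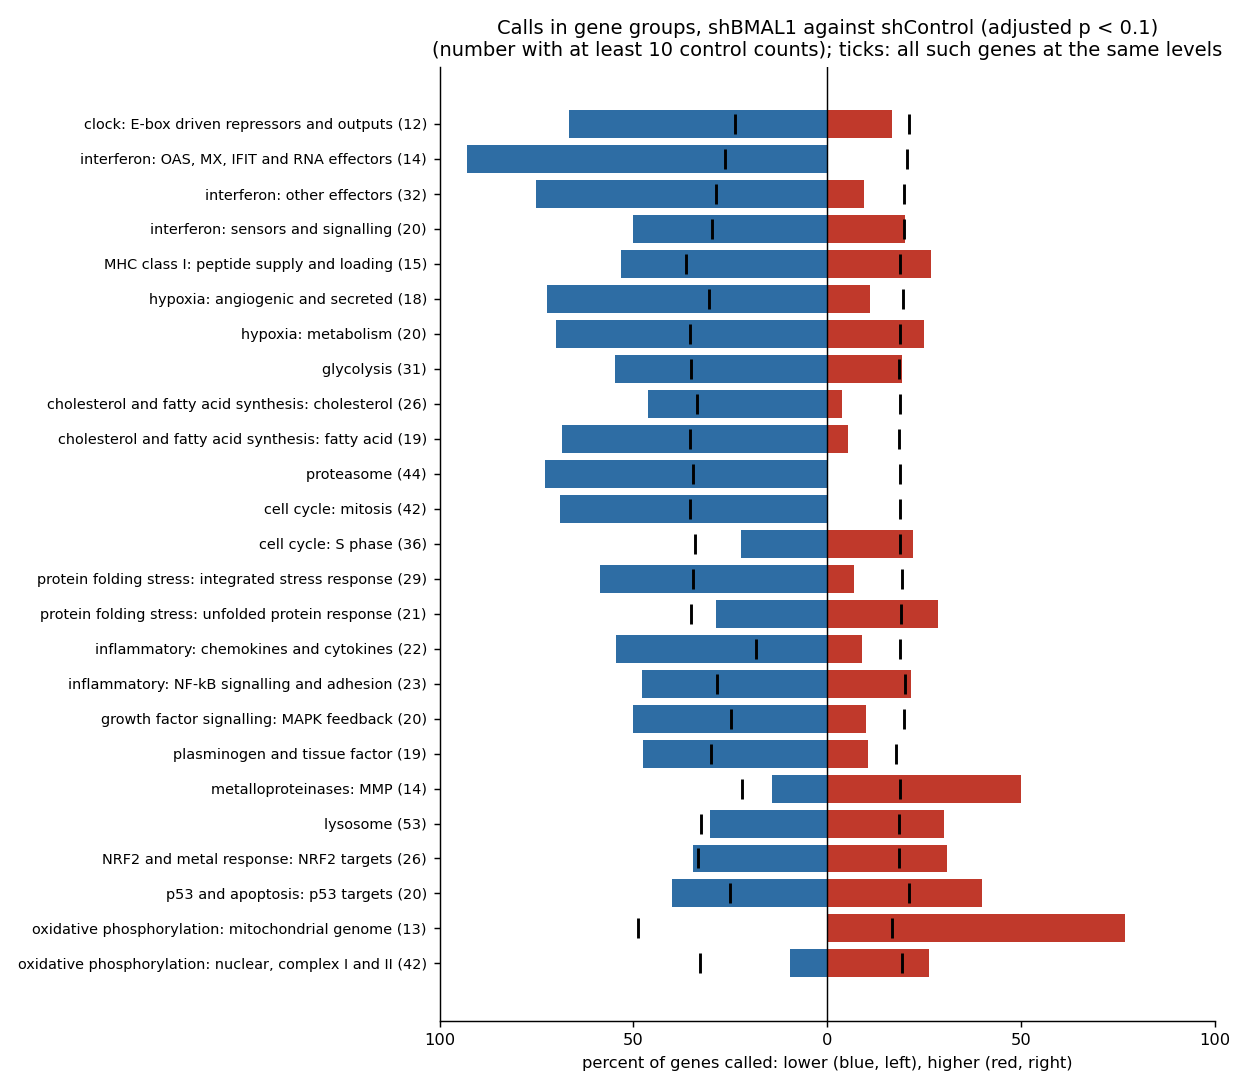
Percent of genes with at least 10 control counts called lower (left, blue) and higher (right, red) in shBMAL1 against shControl at an adjusted p under 0.1, for a selection of the gene groups. The number of such genes is beside each name, and black ticks mark the shares of all such genes at the same levels. The plasma protein, complement, lineage factor and transport lists are among those not drawn. Among the groups drawn, proteasome, mitosis and interferon groups extend far to the left, and the mitochondrial genome and the matrix metalloproteinases (MMP) to the right.

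Other genes with large changes belonged to none of these lists. Of the called genes, the 12 most lowered genes with non-overlapping groups and at least 100 counts in the higher group held OAS2, MX2, OAS1, EPSTI1 and KCNK3, described above, and 7 more. ASB2, a ubiquitin ligase subunit, had 246, 265 and 235 in shControl and 38.7, 18.1 and 24.5 in shBMAL1 (−3.20, SE 0.25). HMGA1, an architectural chromatin protein, had 649, 585 and 789 in shControl and 95.3, 109.9 and 133 in shBMAL1 (−2.58, SE 0.16) and OLFML2B, an extracellular protein, 3556, 3792 and 3484 in shControl and 715, 596 and 583 in shBMAL1 (−2.52, SE 0.09). All 3 stood well apart from the controls. L1CAM, a neural adhesion molecule, went from 131 ± 17.7 to 18.8 ± 8.36 (−2.80), SERPINB7 from 125 ± 14.4 to 14.9 ± 4.54 (−3.07), the inflammasome sensor NLRP3 from 109 ± 17.2 to 15.2 ± 3.22 (−2.84) and GPR1 from 304 ± 26.2 to 47.99 ± 4.94 (−2.67). HMGA1 and L1CAM were not low in shARNT, where they had 537 ± 65.5 and 202 ± 26.7 counts (direct −2.25, adjusted p 3.59e-43, and −3.43, adjusted p 4.98e-31). On the raised side the same rule gave FABP1, SLC2A2, ITIH2, LBP, MMP13, AQP3, SERPINF2, SLCO4C1, DHRS9 and PPARGC1A, together with the uncharacterised transcripts LOC101927960 (3.37) and LOC105376878 (2.99).

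In number of reads the largest rises were in mitochondrial transcripts and the largest falls in genes of the cytoskeleton, translation and glycolysis. FLNA, the actin crosslinker filamin A, had 188829, 197498 and 188666 in shControl and 140180.0, 124109 and 144846 in shBMAL1 (log2 fold change −0.49, SE 0.07, adjusted p 7.72e-12), EEF1A1 went from 98143 ± 5382 to 50341 ± 3766 (−0.97), ACTG1 from 221134 ± 8875 to 176746 ± 24909 (−0.33), TUBA1B from 131507 ± 5542 to 90143 ± 13825 (−0.55) and GAPDH from 165754 ± 11654 to 126250.0 ± 17822 (−0.39). EEF1A1, ACTG1, TUBA1B and GAPDH have processed pseudogenes, and reads may be split with them. The largest rises were COX1, ND4, RNR2, COX3 and COX2, of which RNR2 rose by 0.85, COX3 by 0.40 and COX2 by 0.50.

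**Figure D5:**
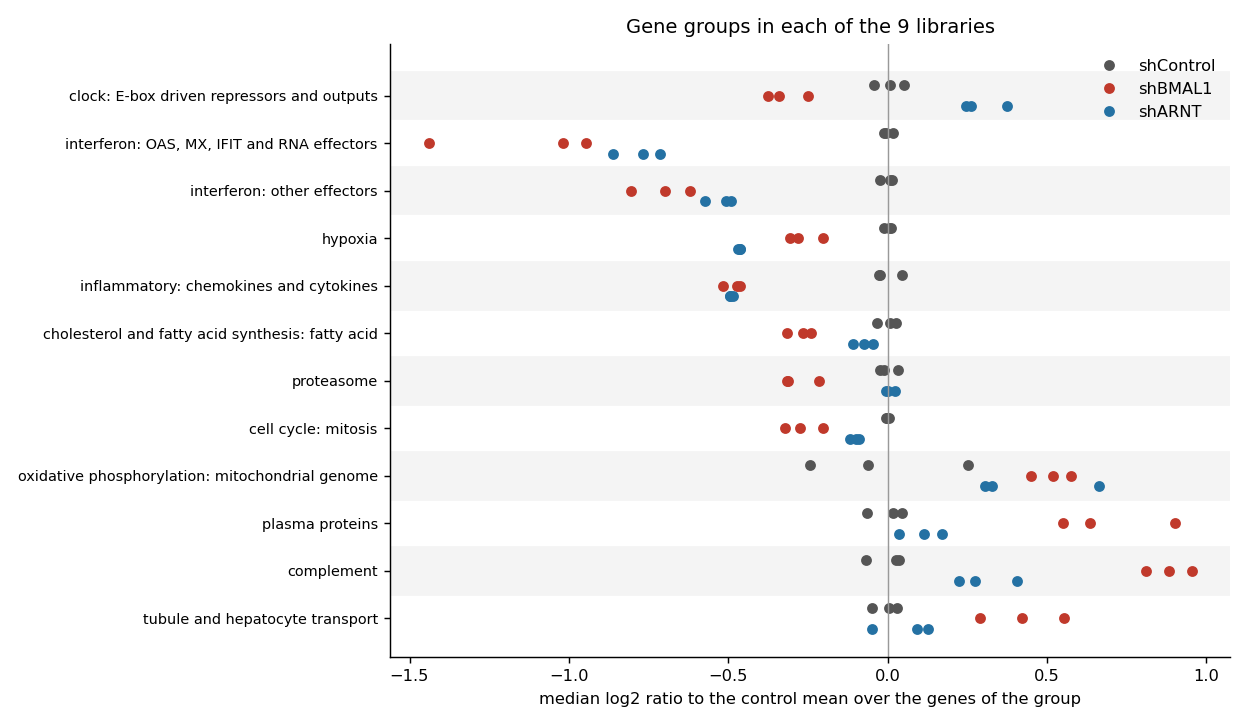
Median log2 ratio of each of 12 gene groups to the control mean (1 added to each count, genes with at least 10 control counts) in each of the 9 libraries, with a point per library. The 3 shBMAL1 libraries stand apart from the 3 controls in these groups, and the shARNT libraries lie nearer shBMAL1 for interferon effectors and beside the controls for the proteasome.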

How the data were processed

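RNA was extracted from cells that carried shControl, shBMAL1 or shARNT, with 3 samples of each, and per the labels stranded mRNA libraries of the DNBSEQ type were made, while the methods name a BGISEQ sequencer. The authors deposited 1 table of estimated counts per gene, in which 6.14% of values above 0 are not whole and 0.009 stands for 0. The methods name GRCh37 with SeqMan NGen and ArrayStar, whereas the submitters' processing notes list hg38, STAR and DESeq2, so the build behind the counts is not settled. Gene positions printed with the values are those of GENCODE on GRCh37, and whether counting used the strand is not given in the sources used here. Here values were rounded, repeated symbols were summed to 38021 genes, and groups were compared with the DESeq2 Wald test (version 1.42.0, R 4.3.3) on the 6 libraries of each comparison, with independent filtering and Benjamini-Hochberg adjusted p under 0.1. Totals per library differ little, and a gene with few reads is measured less precisely than an abundant one. Mean ± SD refers to counts divided by DESeq2 size factors of all 9 libraries. The script was tested on simulated data. Alternatives used edgeR 4.0.16, other scaling, filters and thresholds, a GC content correction and each library left out.

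The members, gene lists and rule were chosen with earlier results of these data known. Named were the markers of the comparison, the 12 most lowered and 12 most raised genes with at least 100 counts and separate groups, the 5 largest falls and rises in counts, the 3 most changed or most abundant uncalled genes of each list or role, the factors, receptors or ligands that name a list, and clock genes whose promoter sequence is printed, and some genes that the rule names are not reported here. The following were chosen after their values were seen: ACSL3, ADAR, AHR, ANGPTL4, ARNT, ATF4, BNIP3, BTC, C3, C5, CDC20, CDK2, CDKN1A, CDKN1B, CEBPD, CFB, CFI, COL14A1, COL6A1, CP, CRY1, CXCL5, EGF, EGFR, EIF2AK2, EREG, FOXA2, IFI44L, IFI6, IFIT3, IFITM3, ITIH4, MKI67, MX1, OAS3, OASL, PLAU, PLK1, PPARA, RELB, SALL1, SERPINA1, SLC17A3, SLC2A1, SNAI2, STAT2, STC1, TGFA, TGFB1, TGFBR2, TRIB3, VEGFA and VIM. Promoter sequences are from RefSeq (GRCh38.p14).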

Additional observations from a re-analysis of the deposited data

How the results depend on the processing

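ARNTL stayed called in all 15 alternatives, with a log2 fold change of −1.27 to −1.15. Without each library in turn, 3136 to 3563 genes were lower and 2612 to 2786 higher against shControl, and 2643 to 3168 lower and 2430 to 2761 higher against shARNT. Adding a replicate block to the fit gave 3178 lower and 2565 higher genes against shControl and 2849 and 2537 against shARNT. Shared numbers did not mark pairs, as the deviations of same-numbered libraries correlated at −0.154, 0.105 and 0.0574, and with the block 3 of 130 list counts moved by over 1.5 times, all for raised fibrillar collagen and protein folding genes. A minimum change of 1.5-fold left 2606 genes against shControl (1070 lower, 1536 higher) and 2058 against shARNT (697 lower, 1361 higher). It left 3 lower mitotic genes, 4 fatty acid, 5 clock, 4 glycolysis, 18 hypoxia and 1 proteasome gene lower, and 5 mitochondrial genes higher, of 29, 13, 13, 17, 35, 32 and 10 called without it. The counts led with for interferon, plasma, complement, lineage and transport genes stayed within 1.5 times of those given under all alternatives. Of 230 named genes called besides ARNTL, 223 kept their call and none changed sign in the 14 alternatives other than the minimum change. The calls of ARNT, C1S, F12, F2R, SAA1, TEF and TRIM5 were lost in at least 1 of those 14. With single libraries left out, 39 of 780 list counts moved by over 1.5 times, among them raised collagen genes, 16 of all tested and 10 without control replicate 2 or shBMAL1 replicate 3. The B2M log2 fold change, not called, changed sign with GC correction (−0.0178) and without a library (−0.0609 to 0.0906). Depth limited scarce genes, and with a mean under 10 counts 1.68% were lower and 5.11% higher.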

Other observations

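Calls were not spread evenly over chromosomes or gene types. On chromosome 14, 13.8% of tested genes were lower and 25.6% higher, against 24.2% and 16.6% on chromosome 1. Among 1792 long noncoding RNA genes tested, 7.25% were lower and 17.8% higher, whereas 24.2% of protein-coding genes were lower and 18.9% higher. Long noncoding RNAs are mostly scarce, and the share of lower genes was also smaller among scarce genes, so these shares are descriptions with no test.

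The aryl hydrocarbon receptor gene AHR, another member of the bHLH-PAS family, was examined after its values were seen. It had 2688, 2939 and 2737 in shControl and 5356, 5961 and 5637 in shBMAL1 normalised counts (log2 fold change 1.02, SE 0.07, adjusted p 2.45e-44), and 3393, 3835 and 3597 in shARNT. The order of the group means was shControl, shARNT, shBMAL1, with no overlap between the groups.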
